A study of Mus musculus with 4 samples.

Results

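The genes described here encode the large symbol-numbered families of ubiquitin ligases and ubiquitin-specific proteases. They were taken from the gene annotation of 3 deposited peak lists as symbols that start with Trim, Rnf, Fbxl, Fbxo, Fbxw or Usp followed by a digit, apart from a symbol that the rule sets aside and that is not reported here, and they numbered 119 of the 6078 genes in the lists. The rule used names only and no measured value. It found 22 Trim, 35 Rnf, 12 Fbxl, 18 Fbxo, 3 Fbxw and 29 Usp genes. The lists came from m6A-eCLIP, in which an antibody against N6-methyladenosine (m6A) is crosslinked to RNA and the bound fragments are sequenced beside input RNA. The cells were mouse embryonic fibroblasts transformed with the oncogenes E1A and HRasV12, and all of them had received doxorubicin, a drug that breaks DNA, at 0.2 µg/ml for 6 h. The control condition carried an shRNA whose label, shLuc, names luciferase. The knockdown condition carried an shRNA that targets Mettl3, the enzyme subunit that writes m6A on nuclear RNA, so both conditions shared the oncogenes and the drug. Each condition had 1 m6A-eCLIP library and 1 input library, which leaves no replicate check for any difference reported here, and untreated cells were not analysed here.

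Ubiquitin is passed from an activating enzyme (E1) to a conjugating enzyme (E2) and, with a ligase (E3), onto a substrate protein. Trim and Rnf proteins are mostly RING ligases, which bring a loaded E2 to the substrate. F-box proteins (Fbxl with leucine-rich repeats, Fbxw with WD repeats, Fbxo with other domains) choose the substrates of cullin-RING ligases, and Usp proteins are proteases that take ubiquitin off again. Many members act in the DNA damage response, where ubiquitin marks chromatin at breaks and sets the level of p53. m6A is written on mRNA mostly in long internal exons and near the stop codon, within a short sequence motif that was not examined here, and it affects RNA decay, splicing and translation. The names and the functions did not match for every member. Fbxl12os is a noncoding RNA from the opposite strand of an F-box gene, Usp6nl encodes a GTPase-activating protein, and Usp39 and Usp50 are not known as active proteases.

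The list over input held 357 member peaks in 104 genes for the control and 345 in 94 genes for the knockdown, and the list of peaks higher in the control held 31 in 21 genes. Across all genes these lists held 15439, 15417 and 1851 peaks. The fold and the p of each peak were computed by the authors. The lists over input hold only peaks with a log2 fold above 3, and their −log10 p reached 400 at most, with 137.5 as the largest value under that limit. Neighbouring peaks often touch, so a methylated stretch can be listed as several pieces. Of 168 runs of touching member pieces in the control list, 90 were a single peak, as were 87 of 163 in the knockdown list. Of 15 fibroblast markers, 4 carried control peaks (Col5a1, Pdgfra, Pdgfrb and Twist1), 5 carried knockdown peaks and 1, Twist1, a peak higher in the control. Haematopoietic, epithelial and endothelial markers carried 0 peaks in each list. A list of peaks does not give transcript levels, so neither cell identity nor the extent of the knockdown could be read from it, and read depth was not analysed here.

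Most members carried peaks in both conditions. Of the 111 members with a peak over input, 87 were in both lists, 17 in the control list alone and 7 in the knockdown list alone. The 17 made up 16.3% of the 104 members with a control peak (95% interval 9.82 to 24.9), beside 17.2% over all genes. The 7 made up 7.45% of the 94 members with a knockdown peak (3.05 to 14.7), beside 15.1%. Intervals here and below are exact binomial ones that cover counting error only, and peaks of a gene that adjoin are not independent. By family, the genes of the control list without a knockdown peak numbered 3 of 21 Trim, 6 of 29 Rnf, 1 of 12 Fbxl, 3 of 14 Fbxo, 0 of 2 Fbxw and 4 of 26 Usp genes. Piece by piece, a knockdown peak overlapped 307 of the 357 member control peaks, or 86.0% (82.0 to 89.4), beside 81.1% of all control peaks. A control peak overlapped 306 of the 345 member knockdown peaks, or 88.7% (84.9 to 91.8), beside 83.7%. Where −log10 p reached 100 or more, these shares were 86.1% beside 87.3% and 89.2% beside 91.7%, so there the members' shares were not above those of all peaks. The share of control peaks overlapped ran from 59 of 73 for Trim and 85 of 104 for Rnf to 41 of 45 for Fbxo and 85 of 93 for Usp, with wide intervals for each family (69.9 to 89.1% for Trim, 83.8 to 96.2% for Usp).

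Member peaks lay mostly in coding sequence. In the control list, coding sequence held 243 member peaks, or 68.1% (63.0 to 72.9), beside 57% of all peaks. The 3' UTR held 79, or 22.1% (17.9 to 26.8), beside 30.9%. In the knockdown list, coding sequence held 259 member peaks, or 75.1% (70.2 to 79.6), beside 60.5%, and the 3' UTR held 51, or 14.8% (11.2 to 19.0), beside 27.3%. These shares count touching pieces separately. With adjoining pieces joined, the 3' UTR shares were 22.9% (17.1 to 29.5) in the control, beside 27.5%, and 18.8% (13.4 to 25.2) in the knockdown, beside 24.3%, so both intervals then hold the share of all peaks. The families ranged widely in this. The Fbxl genes had 2 of 33 control peaks and 0 of 44 knockdown peaks in the 3' UTR, and 20 of these 44 were pieces of Fbxl14 alone. Rnf genes had 28 of 104 and 16 of 89 peaks there, Trim genes 17 of 73 and 11 of 55, Fbxo genes 12 of 45 and 10 of 54, and Usp genes 17 of 93 and 13 of 100. Fbxw genes had 3 of 9 and 1 of 3. The 5' UTR held 13 member peaks in the control, or 3.64%, beside 1.79% of all peaks, and 16 in the knockdown, or 4.64%, beside 2.39%. Trim genes had 5 of these 13 and 9 of these 16. Introns held 14 in each list, or 3.92% and 4.06%, beside 5.91% and 5.22% of all peaks.

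**Figure D1:**
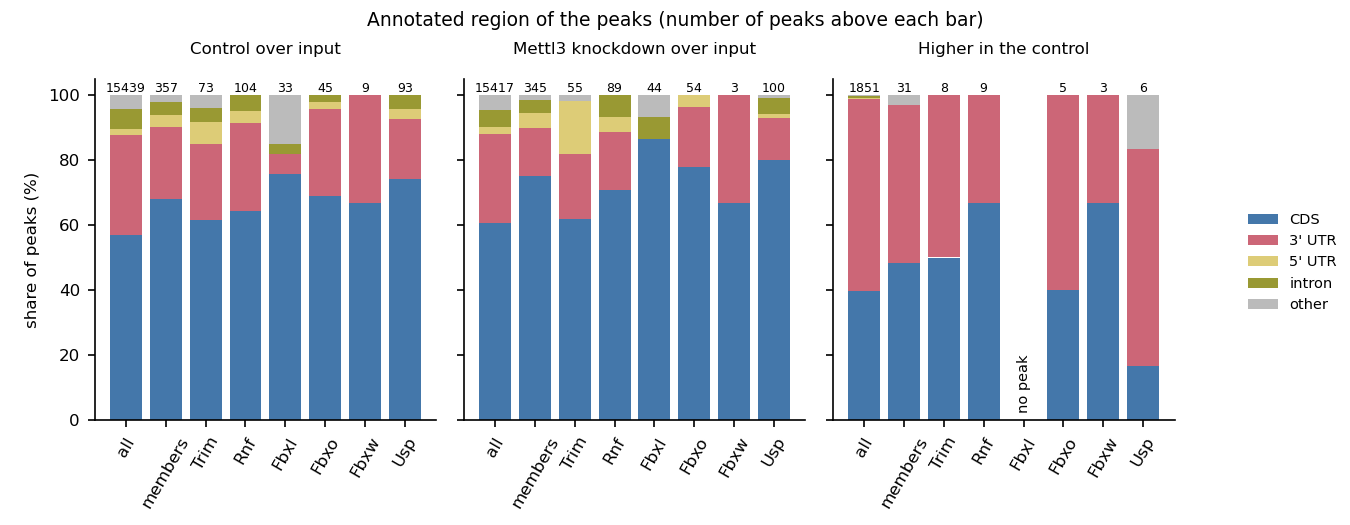
Share of peaks in each annotated region (y axis, percent) for all peaks, all member peaks and each family (x axis) in the 3 lists, with the number of peaks above each bar. Coding sequence held the largest share of member peaks in both lists over input, 68.1% and 75.1%, and Fbxl genes had no peak among those higher in the control.

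The regions differed in how far the lists matched. Of member control peaks, 221 of 243 in coding sequence, or 90.9% (86.6 to 94.2), were overlapped in the knockdown list, beside 84.9% of all such peaks. In the 3' UTR it was 59 of 79, or 74.7% (63.6 to 83.8), beside 80.3%. In the other direction, 228 of 259 knockdown peaks in coding sequence, or 88.0%, and 49 of 51 in the 3' UTR, or 96.1%, were overlapped in the control list, beside 84.5% and 89.8%. So 20 of the 79 control pieces in member 3' UTRs had no knockdown counterpart, against 2 of 51 the other way. Rnf169, which binds ubiquitinated histones at DNA breaks, is an example. Its coding sequence carried a run of pieces in both lists led by a log2 fold of 4.90 in the control against 4.76 in the knockdown. Its 3 pieces in the 3' UTR, like 1 intronic piece, were in the control list alone. Their folds were 3.10 to 3.19 in the 3' UTR and 3.20 in the intron, just above the listing limit of 3. The gene had no peak among those higher in the control. Its covered length was 890 bases in the control against 460 in the knockdown.

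The median log2 fold of member peaks was 3.75 in the control and 3.93 in the knockdown, beside 3.69 and 3.83 over all peaks, and the lists were made separately. A log2 fold of at least 4 was reached by 123 of the 357 control and 154 of the 345 knockdown member peaks. Over all peaks it was 5048 of 15439 and 6376 of 15417. Both lists hold only peaks above a log2 fold of 3, so signal that fell below 3 enters neither these medians nor the comparisons that follow. For the 87 members in both lists, the leading peak (the piece with the largest log2 fold of a gene) was higher in the knockdown list for 50, or 57.5%, beside 55.9% of all genes in both lists. The median of the knockdown minus the control leading log2 fold was 0.12 over these members and 0.07 over all genes. The leading pieces of both lists overlapped each other in 57 of the 87 members, or 65.5%, beside 67.5%, and their folds differed by under 0.5 log2 in 52, or 59.8%, beside 64.2%. Covered length was shorter in the knockdown for 49 of the 87, or 56.3%, beside 56.5%. By family, the leading peak was higher in the knockdown list for 8 of 18 Trim, 14 of 23 Rnf, 8 of 11 Fbxl, 5 of 11 Fbxo, 0 of 2 Fbxw and 15 of 22 Usp genes.

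How closely a gene's leading folds matched went with the support for the peaks. Where the leading peak stood at the limit of −log10 p in both lists (50 genes), 36 genes differed by under 0.5 log2, or 72%, beside 69.7% of all such genes, and the leading pieces overlapped in 38, or 76%, beside 75%. Their differences, knockdown minus control, ran from -0.89 for Rnf185 to 1.89 for Fbxl14. Where it stood under the limit in at least 1 list (37 genes), 16 differed by under 0.5, or 43.2%, beside 59.3%. Their leading pieces overlapped in 19, or 51.4%, beside 60.8%, and the range was -2.78 for Trim62 to 2.68 for Rnf26. A difference over 1 log2 was seen in 12 members, 10 of them with a leading peak under the limit. The other 2 were Fbxl14 and Fbxo38, the latter named after its values were seen, with 3.47 and 4.47. In neither gene did the leading pieces of the lists overlap each other.

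**Figure D2:**
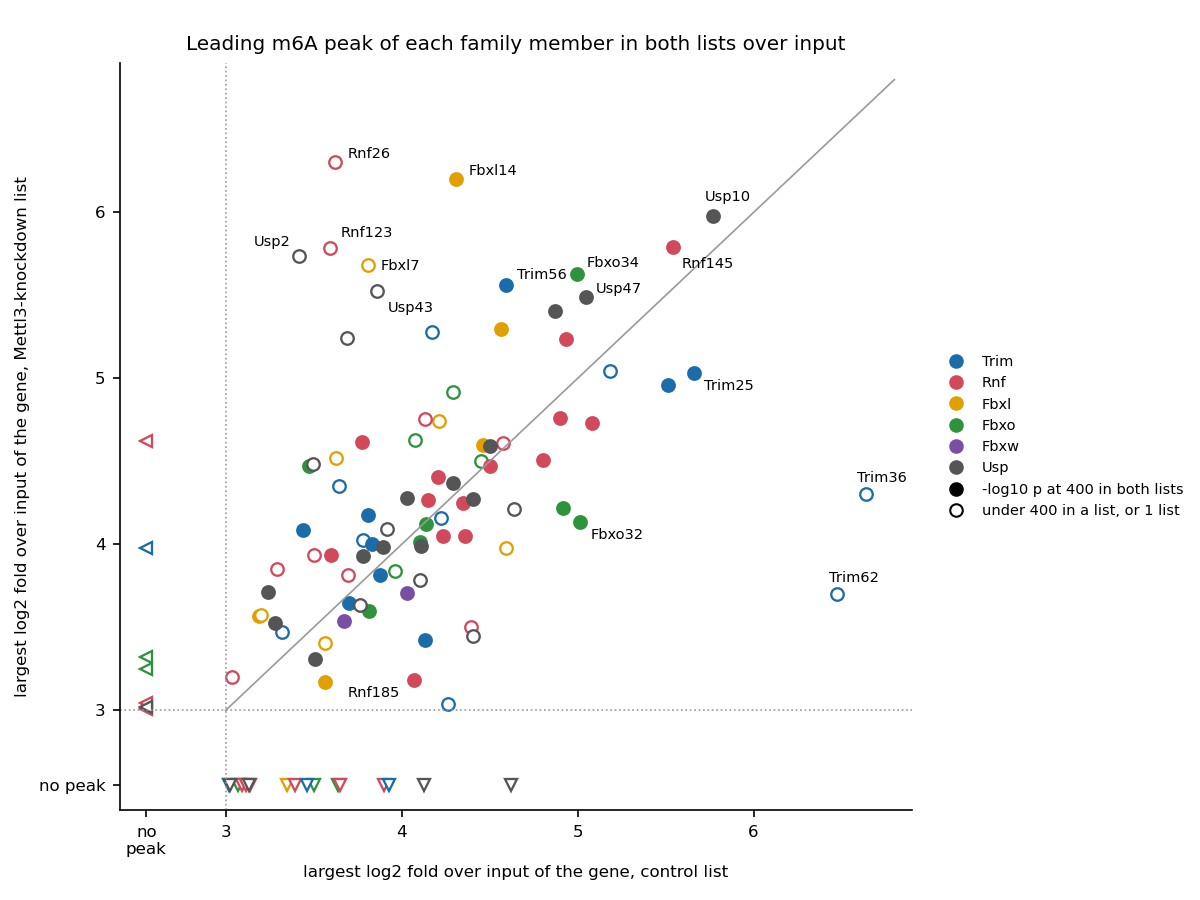
Largest log2 fold over input of each of the 111 members with a peak over input, in the control list (x axis) and the Mettl3-knockdown list (y axis), coloured by family, with members of 1 list placed at the margin marked no peak. Of the 50 filled points, whose −log10 p was at the limit of 400 in both lists, 36 have folds that differ by under 0.5 log2. Fbxl14 (4.31 and 6.20) is the filled point farthest from the line of equal folds. Trim36, Trim62, Rnf26, Rnf123 and Usp2 lie far off that line as open points.

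Among the Trim genes, 21 carried control peaks and 19 carried knockdown peaks. Trim25, a ligase that acts on the viral RNA sensor RIG-I, had its leading piece in the 3' UTR just after the stop codon, where the log2 fold was 5.66 in the control against 5.03 in the knockdown. That piece was at the limit of −log10 p in both. The coding piece before the stop codon had 4.15 and 4.29, so it was the part past the stop codon that was lower in the knockdown list. The whole control run, chr11:89016582-89016857 on the plus strand in mm10, crosses the stop codon. Trim56, a ligase of the antiviral DNA-sensing pathway, had 6 control pieces with a leading fold of 4.59 and 8 knockdown pieces with a leading fold of 5.56, over 1041 and 1078 bases. Trim2, a ligase known for neurofilament turnover in neurons, had folds of 5.19 and 5.05 in the 3' UTR.

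Trim71, an RNA-binding Trim protein of early development and a target of the let-7 microRNA, carried peaks in the 5' UTR alone. Its log2 folds there were 4.17 (control) and 5.28 (knockdown), with −log10 p no higher than 23.7 and 30.5. Trim27 was unusual in position. Its run at chr13:21181118-21181526 went from the 5' UTR across a 5' splice site into the proximal intron, and led with 5.52 in the control. The knockdown list had 4.96 there. Trim8 led in the 5' UTR too, with 3.44 in the control against 4.09 in the knockdown. The highest Trim folds were on peaks far under the limit of −log10 p. For Trim36 the control piece of 6.64 had a −log10 p of 26.9, and the knockdown run over the same bases was listed as 1 peak of 4.30. For Trim62 the control piece of 6.47 had a −log10 p of 23.9, and the knockdown peak that overlaps it had 3.27. The knockdown's leading peak of 3.70 overlaps another control piece of the same 3' UTR, of 5.62.

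The Rnf genes were the largest family, 29 with control peaks and 26 with knockdown peaks. Rnf145, a sterol-regulated ligase of the endoplasmic reticulum, led the control list of the family with 5.54 in coding sequence. Its fold was 5.79 in the knockdown, and every piece of its run in both lists was at the limit of −log10 p. Rnf213, a giant ATPase and ligase linked to moyamoya disease in humans, had 10 pieces in each list, led by 5.08 in the control against 4.73 in the knockdown, and covering 1494 and 1868 bases. Its knockdown peaks fell into 8 separate runs, more than for any other member in that list. Rnf144b, a p53-inducible ligase, carried its peaks in the 3' UTR alone, at 4.93 (control) and 5.24 (knockdown). Rnf103, of the endoplasmic reticulum, had 4.80 and 4.51 across coding sequence.

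Several Rnf genes differed more between the lists. Rnf26, which regulates the DNA-sensing adaptor STING, had a leading 3' UTR piece of 3.62 in the control against 6.30 in the knockdown, the largest knockdown fold of any member. Its control pieces had −log10 p of 75.2 at most, and the annotation names the predicted gene Gm49380 beside it on those peaks. Rnf123, a ligase for the cell-cycle inhibitor p27, had intronic peaks alone, led by 3.60 in the control against 5.79 in the knockdown. These leading pieces lie in separate places, and the control peak at the place of the 5.79 had 3.46. All of its 2 control and 3 knockdown pieces also lie within the RefSeq span of Amigo3, so the transcript they come from is uncertain. Rnf185, a ligase of endoplasmic-reticulum-associated degradation, was singled out after its values were seen. It had 7 touching or nearby 3' UTR pieces with folds of 3.19 to 4.07 over 708 bases in the control, and 2 pieces of 3.07 and 3.18 over 463 bases in the knockdown. Rnf139, another ligase of that membrane, had touching pieces labelled in turn intron and coding sequence, with leading folds of 3.77 and 4.62, and its place lies within the span of Tatdn1 as well.

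The F-box genes of the leucine-rich class held the widest difference in leading fold at the limit of −log10 p in both lists, that of Fbxl14. Fbxl14, which targets the transcription factor Snail for degradation, had 3 control pieces over 517 bases with folds of 3.26 to 4.31. In the knockdown list it had 20 pieces over 504 bases, led by 6.20, more pieces than any other member of that list. The leading pieces of the lists did not overlap, and nearly the same length was cut into unlike numbers of pieces. The folds of 4.31 and 6.20 are thus not those of the same bases. All pieces of both lists were in coding sequence and at the limit of −log10 p, and the RefSeq span of Wnt5b covers the place too. Fbxl18 had 4.56 in the control against 5.30 in the knockdown. Fbxl5, the iron-sensing F-box protein that removes iron regulatory protein 2, had 4.46 and 4.60, all in coding sequence but in separate runs. At the control run led by 4.46 the knockdown peak had 3.69, and at the knockdown run led by 4.60 the control reached 4.32. Fbxl7 had 3.81 and 5.68 on 1 peak in each list, with −log10 p of 8.91 and 13.9. Fbxl17 carried its leading peak in an intron, at 3.63 and 4.52. The noncoding Fbxl12os had 5 control and 3 knockdown peaks, led by 4.60 and 3.98, with −log10 p of 16.9 at most.

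Among the Fbxo genes, Fbxo32 (atrogin-1, the muscle atrophy ligase) had the largest control fold, 5.01, and 4.13 in the knockdown, both in the 3' UTR. Fbxo34 had 4.99 and 5.63, on a run that crosses the stop codon. Fbxo11, which targets the repressor BCL6, had 4.92 and 4.22 in the 3' UTR, again in a run that reaches back into coding sequence. Fbxo46 had 5 control and 11 knockdown pieces, all in coding sequence, over 831 and 1139 bases, with leading folds of 4.29 and 4.92. Fbxo10 had 4.08 and 4.63. Fbxo48 had coding and 5' UTR pieces in both lists, led by 4.45 and 4.50. The leading folds of Fbxo32 and Fbxo11 were thus lower, and those of Fbxo34, Fbxo46 and Fbxo10 higher, in the knockdown list, with 1 library per condition. For Fbxo11 and Fbxo46 the leading pieces of the lists did not overlap each other. Those of Fbxo46 lay in separate runs, and at the control run led by 4.29 the knockdown reached 4.63. Of the WD-repeat class, Fbxw2 had 4.03 and 3.71 in coding sequence, and Fbxw11, a β-TrCP protein that targets β-catenin and IκB, had 3.67 and 3.54 in the 3' UTR.

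The Usp genes held the longest runs. Usp47, a protease that stabilises the repair polymerase β, had 13 touching control pieces over 641 bases of coding sequence, all at the limit of −log10 p, led by 5.05. Its knockdown list entry had 12 coding pieces led by 5.49. Usp10, which deubiquitinates p53, had the highest control fold of any member at the limit of −log10 p. Its run of 488 bases at chr8:119941443-119941930 led with 5.77 in the control, and the knockdown run over the same place, 484 bases long, led with 5.98. Touching pieces of that run were labelled in turn coding sequence and intron, 7 and 3 in the control and 6 and 5 in the knockdown, so the intron label there does not mark a separate site. Usp10 and Rnf139 together gave 5 of the 14 intronic member pieces in the control and 8 of 14 in the knockdown.

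Usp1, which deubiquitinates FANCD2 and PCNA, had 4.87 (control) and 5.40 (knockdown). Usp53 had the longest control stretch of any member, 741 bases, with folds of 4.64 and 4.21. Usp31 had 4.29 and 4.37 over 966 and 928 bases. Usp42, a protease that can act on p53, had 4.03 and 4.28, over 1207 and 1051 bases in coding sequence and the 3' UTR. The run of Usp53 was split in the knockdown list into stretches of 304 and 405 bases, none of their pieces at the limit of −log10 p. Usp2, which stabilises cyclin D1, differed more, at 3.42 and 5.74, as did Usp43 at 3.86 and 5.53. Their −log10 p were at most 29.9 and 49.2, under the limit in both lists.

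Members listed over input in 1 condition alone mostly had low folds. The 17 with a control peak alone had a median leading log2 fold of 3.40, beside 4.11 for the members in both lists and 3.40 for all genes in the control list alone. Of the 17, 11 lay below 3.5, or 64.7%, beside 58.6% of those genes, and 13 had a single peak, or 76.5%, beside 72.4%. A peak at the limit of −log10 p was held by 7, or 41.2%, beside 25.7%. The leading folds of these 7 ran from 3.02 to 4.13, so some lay close to the listing limit of 3. Of the 50 member control pieces without a knockdown counterpart, 24, or 48% (33.7 to 62.6), stood at the limit of −log10 p. The share of all such pieces was 24.3%, and touching pieces of a gene are counted separately. A p at that limit supports a peak over input, not its absence in the knockdown. Usp51, a protease for ubiquitinated histone H2A, had the largest such fold, 4.62, on 1 coding peak with a −log10 p of 5.97. Usp15, a protease of TGF-β receptor signalling, had stronger support over input. Its run of 4 control pieces crosses the stop codon with folds of 3.29 to 4.13, all at the limit of −log10 p. No knockdown peak was listed in the gene, but only the last of these pieces was listed as higher in the control. That log2 difference was 0.58 in the authors' deposited table, so the missing knockdown entry does not measure a difference over the whole run. Trim66, a chromatin-reading Trim protein, had 1 intronic peak of 3.93. The 7 members with a knockdown peak alone had a median of 3.25, beside 3.72 for all genes in the knockdown list alone, and 5 lay below 3.5, or 71.4%, beside 42.0%. Rnf223 led with 4.62, followed by Trim9 with 3.98 and Fbxo33 with 3.32, of which that of Fbxo33 alone was at the limit of −log10 p.

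**Figure D3:**
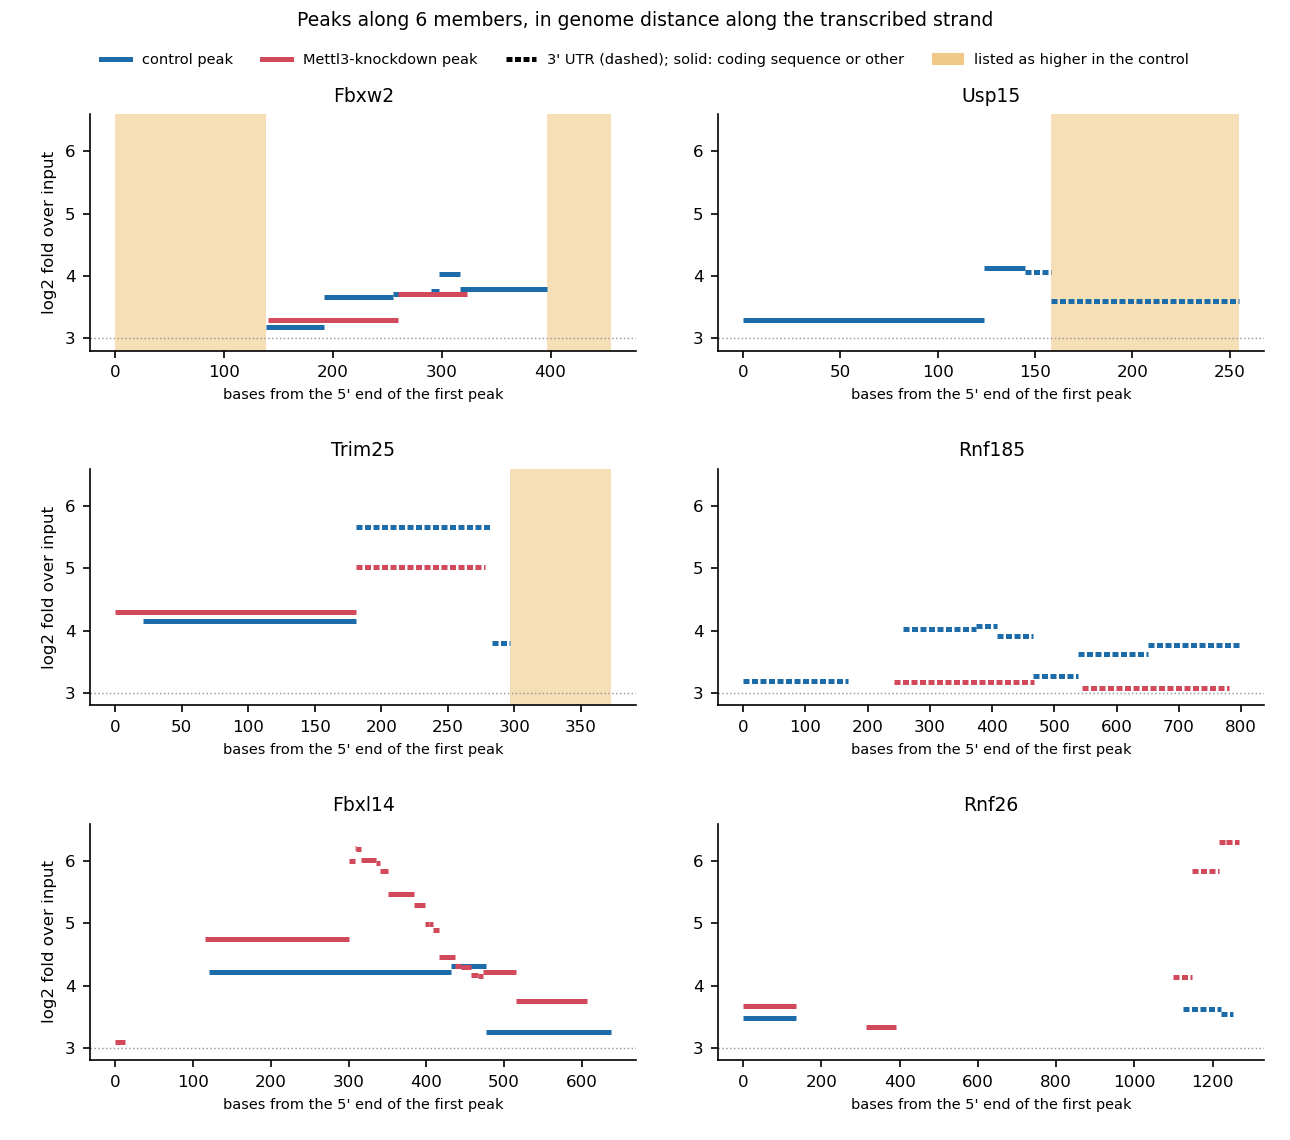
Peaks along 6 members, with the distance in bases from the 5' end of the first peak (x axis) and the log2 fold over input (y axis), control in blue, Mettl3 knockdown in red, 3' UTR dashed, and shaded spans for peaks listed as higher in the control. Usp15 has 4 control pieces, of which only the last is shaded, and no knockdown piece. The shaded spans of Fbxw2 border both ends of its control run, and that of Trim25 starts where its last control piece ends. Fbxl14 reaches 6.20 in the knockdown against 4.31 in the control, on pieces that do not overlap each other.

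The third list is the authors' own comparison of the conditions, and asked where the m6A-eCLIP signal was higher in the control than after the Mettl3 knockdown. Its entries are limited to a log2 difference of at least 0.5 in favour of the control, so it has no entry for the sites that were higher after the knockdown. They are also limited to a p of the authors under 0.05, from 1 library per condition, and the largest p listed was 0.0499. Of the 104 members with a control peak, 12, or 11.5% (6.11 to 19.3), also appeared in this list, beside 12.2% of all genes with a control peak. The members' share was thus near that of all genes. By family these were 4 of 21 Trim, 4 of 29 Rnf, 0 of 12 Fbxl, 1 of 14 Fbxo, 1 of 2 Fbxw and 2 of 26 Usp genes. A share of up to 26.5% remains within the interval for Fbxl. In the authors' deposited table the median log2 difference was 0.72 over the 31 member peaks and 0.76 over all peaks. Coding sequence held 15 of the 31, or 48.4% (30.2 to 66.9), beside 39.8% of all such peaks, and the 3' UTR held 15 as well, beside 59.1%. The last lay in a noncoding exon.

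**Figure D4:**
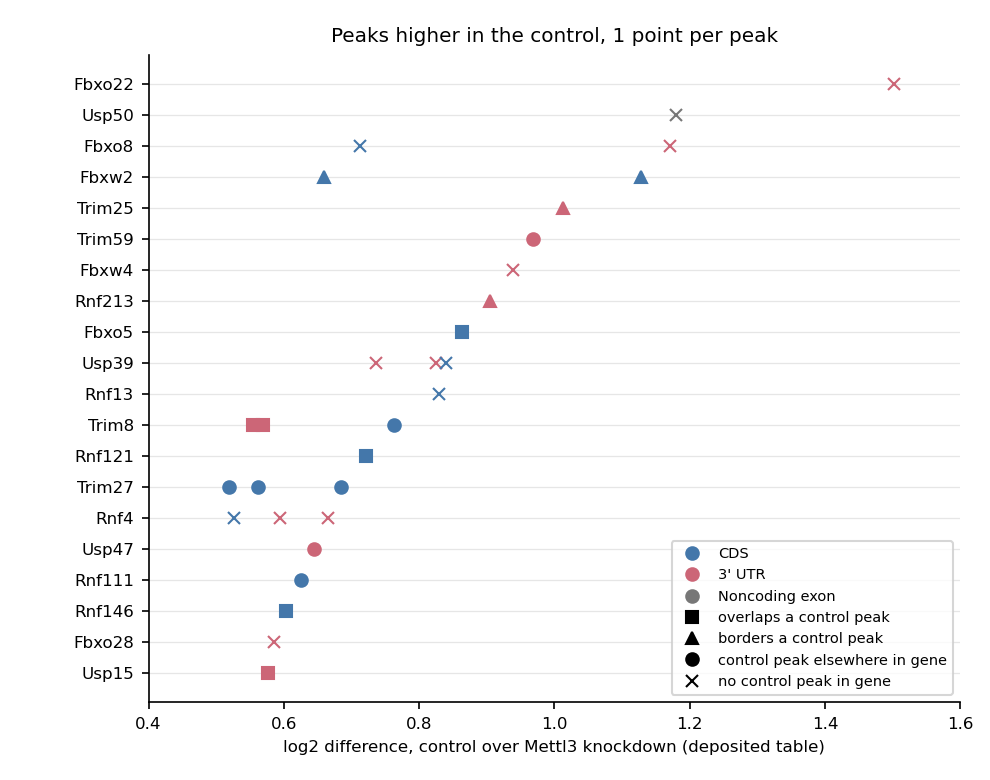
Log2 difference of 30 of the 31 member peaks higher in the control (x axis, control over Mettl3 knockdown, the authors' deposited table) for 20 genes (y axis), coloured by region, with the shape giving the relation to control peaks of the same gene. The values run from 0.52 to 1.50, and 13 of the 30 peaks, drawn as crosses, lie in genes with no control peak over input.

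Most of these sites were not peaks over input. Of the 31, 25 overlapped no peak of either list over input, or 80.6%, beside 77% of all peaks higher in the control. Against the control peaks of their own gene, 4 had the same ends as a control peak and 2 overlapped one in part, beside 22.1% of all such pairs of peak and gene. Another 4 shared a border with a control peak, beside 4.2%, while 7 lay apart from any, beside 25.3%, and 14 lay in genes without one, beside 48.4%. Seen from the lists over input, 5 of the 357 member control peaks, or 1.40%, were overlapped by a peak of the comparison, beside 2.8%. Of the 345 member knockdown peaks 0 were, beside 1.09%, and 1 shared a border. Of all peaks in the comparison, 22.3% overlapped the control list and 8.97% the knockdown list. Of the 21 genes, 8 had no peak over input in either list, or 38.1% (18.1 to 61.6), beside 49.9%.

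Among Trim genes, 4 were in the comparison, and all 4 also had peaks in both lists over input. The authors' deposited table gave Trim25 a log2 difference of 1.01 (p = 0.0339). That peak covers 76 bases of 3' UTR that begin where the last control piece ends, so it extends the run across the stop codon described above. Trim59 had 0.97 (p = 1.58e-04) by the authors' deposited table, in the 3' UTR and 128 bases from its nearest control peak. Trim8 had 0.76 on 13 coding bases, and 0.57 and 0.55 on neighbouring 3' UTR pieces, by the authors' deposited table. For Trim27 the authors' deposited table gave 0.52, 0.68 and 0.56 on a touching row of coding pieces. These lie 10650 bases or more from its control peaks at the 5' end, so the signal higher in the control was at another place of the gene than its peaks over input.

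Among Rnf genes, 7 were in the comparison. Rnf121 and Rnf146 (a ligase that recognises poly(ADP-ribose)) had coding peaks with the same ends as control peaks, and the authors' deposited table gave them log2 differences of 0.72 and 0.60. Their control log2 folds over input were 3.83 and 3.18, so the fold less the difference came to 3.11 and 2.57. In all 5 peaks of any gene with the same ends in all 3 lists, the deposited difference equalled the control minus the knockdown fold over input within 1e-06. No knockdown peak was listed in Rnf121. For Rnf213 the authors' deposited table gave 0.91 (p = 0.0359), on 57 bases of 3' UTR that border its last control piece and that the span of A930037H05Rik covers too. Rnf111 (Arkadia, a ligase of TGF-β signalling) had a coding peak of 0.63 by the authors' deposited table, 48981 bases from its nearest control peak. Rnf4, a ligase that recognises SUMO chains, had 0.53 before the stop codon and 0.66 and 0.59 after it, by the authors' deposited table. Rnf13 had 0.83 on a coding peak by the authors' deposited table. Rnf4 and Rnf13 had no peak over input in either condition.

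Among F-box genes, Fbxo22 had the largest member difference of the authors' deposited table, 1.50 (p = 0.00824), on 41 bases of 3' UTR. It had no peak over input, and the span of Nrg4 covers the same place. Fbxo8 had a coding and a 3' UTR piece that touch, at 0.71 and 1.17 by the authors' deposited table, again with no peak over input. For Fbxo5 (Emi1, an inhibitor of the anaphase-promoting complex) the authors' deposited table gave 0.86 on a coding peak with the same ends as a control peak of 3.16, which leaves 2.30. Fbxo28 had a 3' UTR peak of 0.59 by the authors' deposited table, in a gene with a knockdown peak and no control peak. For Fbxw2 the authors' deposited table gave 1.13 (p = 1.71e-04) and 0.66 (p = 0.00577), on pieces that border both ends of its 258-base control run. Within that run the knockdown list had 2 pieces over 183 bases. Fbxw4 had a 3' UTR peak of 0.94 (p = 0.0490) by the authors' deposited table and no peak over input.

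Among Usp genes, Usp47 had the smallest p of any member, 3.35e-05, with a log2 difference of 0.64 by the authors' deposited table. This 3' UTR peak of 219 bases lies 16774 bases from its coding run and borders a knockdown 3' UTR peak of 3.24. It thus stands apart from the coding run, which was listed over nearly the same bases in both conditions. For Usp15 the authors' deposited table gave 0.58 (p = 0.0402) on the last piece of its control run, and its control fold of 3.59 less that difference came to 3.02. Usp39, a splicing factor, had 0.84 before its stop codon and 0.82 and 0.74 after it by the authors' deposited table, and no peak over input. Usp50 had 1.18 on a noncoding exon by the authors' deposited table. RefSeq places that site within the spans of Usp8 and Gm10774 and outside that of Usp50, so its assignment is uncertain.

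The other genes of the ubiquitin system were read from a list of 114 genes. Control peaks were in 35 of them and knockdown peaks in 29, and 7 were in the comparison. Of the 35, 4, or 11.4%, were also in the comparison, near the share of all genes given above. The E1 enzymes and their relatives had control peaks in 2 of 6 genes, the E2 enzymes in 6 of 33, cullins and their partners in 5 of 17, HECT ligases in 8 of 22 and other deubiquitinases in 14 of 32. The 4 ubiquitin genes had 0 peaks in each list. The largest difference of these genes in the authors' deposited table was 2.35 (p = 0.00323) in the 3' UTR of Brcc3, a protease specific for K63-linked chains. Trip12, a HECT ligase, had 0.72 with a p of 9.77e-08 in the authors' deposited table, and its peaks over input numbered 7 in the control and 1 in the knockdown. For Cul1, the scaffold on which F-box proteins assemble, the authors' deposited table gave 0.68 (p = 4.30e-04), and its leading folds over input were 5.35 in the control against 5.15 in the knockdown. Cul4b, Ube2d3 and Ube3b had 0.81, 0.62 and 0.52 by the authors' deposited table and no peak over input.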

How the data were processed

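Per the submitters' processing notes, reads were handled with UMI-tools 0.5.1 and cutadapt 2.7, and coordinates are those of mm10. For the aligner, the peak caller and the statistical test no name is given in the sources used here. Per peak, the authors deposited a log2 fold and a −log10 p-value in the lists over input, and in their comparison a log2 difference and a p-value, with a gene and a region. The submitters made each list separately from 1 library per condition and its input, so no test was run here.

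Members and lists were chosen with earlier results of these data known. Some genes are not reported here by name. Of 119 members, 119 had an Ensembl identifier found in the name table. RefSeq spans (GRCm38.p6, without strand) served only to name neighbours. The span of another gene was also found at 47 of the 357 member control peaks, in 17 genes. In the knockdown it was found at 53 of the 345, in 14 genes. Outside the span of the member itself lay 7 control peaks, of Rnf219 and Trim56, and 4 knockdown peaks, of Rnf219. Overlap meant 1 base on the same strand. Coordinates are printed 1-based. Shares carry exact Clopper-Pearson 95% intervals. Introns pool proximal and distal labels. Peak joining and overlap counts were tested on simulated data. Named genes were, per family, the 3 largest folds of each list over input and the first gene by 5' UTR or intron bases. To these came the 5 with most peaks and the 5 longest stretches per list, the 3 largest folds found in 1 list alone, and every member of the comparison list. Alternatives covered stricter thresholds, joined peaks, larger overlaps and fewer members. Python 3.11.15, pandas 2.3.3, numpy 2.4.6, scipy 1.17.1 and matplotlib 3.10.9 were used. No genome sequence of the build was used here, so sequences and motifs of the peaks are not shown.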

Additional observations from a re-analysis of the deposited data

How the results depend on the processing

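Of 52 alternatives, 37 left the value within its main interval, among them those without Fbxl12os, Usp6nl, Usp39 and Usp50, which were chosen after seeing the data. With a log2 fold over input of at least 4, the overlapped share fell to 77.2% of member control peaks, beside 73.1% over all genes. For knockdown peaks it fell to 70.8%, beside 65.9%. The knockdown 3' UTR share was then 11.0%, beside 28.4%, and the medians were 4.40 and 4.60, beside 4.42 and 4.56. With −log10 p of at least 100 the medians were 3.89 and 4.05, beside 3.87 and 4.06. With at least 50% of a peak overlapped the shares were 79.6% and 81.4%, beside 75% and 79%. Joining adjoining peaks gave 80.9% and 84.5%, beside 74.3% and 76.9%. In the authors' deposited table, a log2 difference of at least 1 left 1.92% of members with a control peak, beside 4.41% of all such genes. The median was then 1.17, beside 1.22. A −log10 p of at least 3 left 2.88%, beside 3.44%, and a median of 0.97, beside 0.77. Stricter thresholds raise medians and lower counts by their construction. No paired analysis was possible because each condition had 1 library. Peaks under the listing limits were not analysed here, so a missing peak is no evidence of missing m6A.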
